A study of Bos taurus with 9 samples.

Results

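Of 2257 long non-coding RNA (lncRNA) transcripts quantified in bovine mammary epithelial cells, 192 were transcripts that Ensembl already annotated, lay on an assembled chromosome and had a mean of at most 10 FPKM over 9 libraries. FPKM counts fragments relative to transcript length and to the mapped fragments of the library, so levels are compared here per length. The rule took transcript identifiers beginning ENSBTAT, of which the tables held 210. It left out 3 on unplaced scaffolds and 15 above 10 FPKM. Identifier, position and mean level chose the members, so levels below are a description. Differences between time points did not enter the rule itself. They did enter the tables, which list only lncRNAs whose mean reached 0.5 FPKM in at least 1 time point, as held for all 2257. A member with an overall mean under 0.5 FPKM is therefore present only through a time point above that mean. The lower quartile of the member means was 0.488 FPKM.

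The cells were MAC-T, an immortalized bovine mammary epithelial line used as a culture model of mastitis. They were exposed to 50 ng/μL lipopolysaccharide (LPS), the endotoxin of the Gram-negative outer membrane, and ribosomal RNA was depleted before sequencing. The groups were untreated cells (0 h), cells 6 hours post induction (6 hpi) and cells at 12 hpi, with 3 libraries each. Each time point was a 6-well plate of its own and no untreated plate was kept for 6 or 12 hours, so plate, time in culture and LPS cannot be told apart. The labels call the libraries biological replicates but do not say which wells or passages they came from, so p-values measure only the spread between these libraries. No messenger RNA was in the tables used here, so the cell type could not be checked against its markers: of 24 marker genes looked for as hosts of deposited lncRNAs, only RUNX1 was found.

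LncRNAs are transcripts without a long open reading frame. Some act on neighbouring genes in cis, some bind proteins or microRNAs, and for most no role is known. They are generally scarcer than messenger RNAs, and many are spliced into several transcripts of the same gene. In mammary epithelium LPS is sensed by Toll-like receptor 4, which signals through NF-κB to cytokine and chemokine genes. All but 2 of the 192 transcripts carried only an Ensembl identifier, and no function is given for those here.

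The only oligonucleotides the study lists for any of them are the qRT-PCR primers of ENSBTAT00000079931, a transcript listed at 0 in all 0 h libraries and described below. They are shown 5′ to 3′ because the study's qRT-PCR of this transcript rests on them. Capitals mark the last 5 bases, the 3′ end from which the polymerase extends. Each has 18 bases and a GC content of 55.6%. Which of the 6 transcripts of the gene they amplify was not determined.
ENSBTAT00000079931 forward: tcgtggcagggacAGAAA
ENSBTAT00000079931 reverse: aagcggcaaggtgTTAGG

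The 192 transcripts came from 152 genes on 29 chromosomes, with 15 on chromosome 18 and 11 each on chromosomes 3, 13 and 19. Mean levels ran from 0.193 to 9.55 FPKM with a median of 0.812 and quartiles of 0.488 and 1.85. The mean was under 1 FPKM for 104 transcripts, 1 to 2 for 41, 2 to 5 for 31 and above 5 for 16. The lncRNAs the study had assembled from its own reads, under the same limit of 10 FPKM, had medians of 0.605 (593 intergenic), 0.658 (584 antisense) and 0.706 FPKM (807 sense overlapping). The span on the genome had a median of 4521 bp and ran from 1003 to 173214 bp, with 101 transcripts under 5 kb and 23 over 50 kb.

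**Figure D1:**
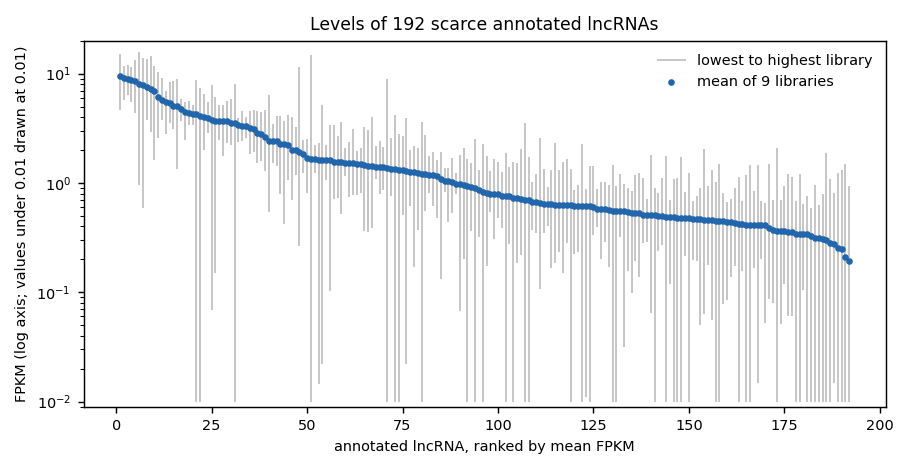
FPKM on a log axis for the 192 annotated lncRNAs, ranked by mean; dots are means over 9 libraries and grey lines join the lowest and the highest library, with values under 0.01 drawn at 0.01. Means fall from 9.55 to 0.193 FPKM, and lines that reach 0.01 belong to transcripts at or near 0 in at least 1 library.

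Detection in these bulk libraries was uneven from transcript to transcript. Of the 192, 152 (79.2%) were above 0 in all 9 libraries, 17 were listed at 0 in 1 library and 23 in 2 or more, up to 7. The share without a 0 was 70.5% for assembled intergenic, 67.8% for antisense and 71.0% for sense overlapping lncRNAs. These classes were scarcer, and among lncRNAs with means from 0.5 to 2 FPKM the shares were 83% for the annotated, 84.4% for intergenic, 76.0% for antisense and 79.6% for sense overlapping lncRNAs. A floor of 0.5 FPKM in every library was passed by 66 transcripts (34.4%), and 41 exceeded 1 FPKM in every library. The coefficient of variation (CV, SD over mean) across the 9 libraries had a median of 51.7%, and within a time point the median was 40.7%.

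The most abundant member was ENSBTAT00000066373 (chromosome 23, 17535072 to 17546983, build ARS-UCD1.2), at a mean of 9.55 FPKM. ENSBTAT00000068222 on chromosome 14 followed at 9.13, and it read 11.9, 11.2 and 7.31 FPKM at 0 h, 7.39, 9.37 and 9.87 at 6 hpi, and 5.76, 9.37 and 10.1 at 12 hpi. Its groups overlapped throughout. ENSBTAT00000086984 on chromosome 18 had a mean of 9.0 FPKM. Its 6 hpi libraries lay at 9.84, 10.4 and 10.8 FPKM, above the 0 h libraries at 6.75, 7.60 and 7.82, whereas 12 hpi spread from 6.31 to 12.0. ENSBTAT00000084193 (8.75), ENSBTAT00000075230 (8.60), ENSBTAT00000076581 (8.06), ENSBTAT00000071200 (7.93), ENSBTAT00000073384 (7.61), ENSBTAT00000081778 (7.27) and ENSBTAT00000076044 (6.93) completed the 10 highest means. Annotated lncRNAs above 10 FPKM had a median CV of 24.0%, beside 51.7% for the members. A high mean did not bring even values in every transcript. ENSBTAT00000071200 read 0.595 FPKM in 0 h replicate 2 and 13.8 in 12 hpi replicate 2, and ENSBTAT00000076581 read 0.960 in 0 h replicate 1 and 15.6 in 6 hpi replicate 2.

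Just outside the limit lay ENSBTAT00000073211 at 10.2 FPKM, ENSBTAT00000066404 at 10.6 and ENSBTAT00000070696 at 11.1. The first and last of these are transcripts of the same gene on chromosome 23 and were near 0 in some libraries and at 9.63 FPKM or more in others.

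The steadiest member was ENSBTAT00000081806 (chromosome 20, 31300181 to 31304035), between 2.60 and 3.97 FPKM in all libraries with a CV of 13.2%. It lies within 100 kb of a deposited lncRNA hosted by TMEM267. ENSBTAT00000078500 (13.4%), ENSBTAT00000084119 (13.4%), ENSBTAT00000080030 (14.1%) and ENSBTAT00000072072 (15.6%) came next, with means from 0.987 to 4.80 FPKM. The least steady were ENSBTAT00000067218 (298%), ENSBTAT00000066658 (235%), ENSBTAT00000071741 (218%), ENSBTAT00000072688 (209%) and ENSBTAT00000086900 (198%). Each of these 5 drew most of its mean from 1 or 2 libraries.

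Summed over the 192 transcripts, the libraries held 290.9 to 380.5 FPKM. The median member was at 0.914, 0.944 and 0.966 FPKM in the 12 hpi libraries and at 0.732 to 0.894 in the other 6, so every 12 hpi library lay above every earlier one by a small margin. Over all 1948 lncRNAs tested, 0 h replicates 1 and 2 stood apart from the rest, at 26.3 and 33.5 on a first principal component holding 20.2% of the variance, with the other 7 libraries between −20.0 and 3.84. Results were therefore also computed without these libraries. In bulk RNA, fewer cells of a kind and less RNA per cell cannot be told apart.

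For the comparisons over time, 166 of the 192 transcripts exceeded 0.5 FPKM in at least 3 of the 9 libraries and were tested with limma on log2(FPKM + 0.1), which understates the change of scarce transcripts. The other 26 were too scarce, and some of the most uneven transcripts are among them. A transcript is called higher or lower below where it passed the thresholds of the study, a log2 fold change beyond 1 in either direction and an unadjusted p under 0.05. P-values were also adjusted by the Benjamini-Hochberg method over all 1948 lncRNAs. The comparisons of 6 and 12 hpi with 0 h share the 0 h libraries and are not independent of each other. Counts under alternative settings are given for the members alone, so their shifts cannot be read as particular to the members.

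The first question was which of these lncRNAs differ after 6 hours of LPS. At 6 hpi 8 of 166 transcripts (4.82%) passed the thresholds against 0 h, 7 higher (4.22%) and 1 lower (0.602%). Of all tested lncRNAs 6.06% passed, 3.75% higher and 2.31% lower. After centring each library on its median, 6 were higher and 3 lower. None had an adjusted p under 0.05 with limma, the smallest being 0.273, and 14 (8.43%) had an unadjusted p under 0.05, beside 9.8% of all tested lncRNAs. The 3 values of 6 hpi did not overlap those of 0 h for 30 members (18.1%), with 16.6% among all tested lncRNAs. The median log2 fold change was −0.03 for the members and 0.05 for all tested lncRNAs. The count of 8 became 5 without 0 h replicates 1 and 2, and leaving out a single library changed it to 14 (without 0 h replicate 3), 5 (12 hpi replicate 1) or 4 (12 hpi replicate 3). A pseudocount of 1 in place of 0.1 gave 1.

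At 12 hpi 17 of 166 transcripts (10.2%) passed against 0 h, with 10 higher (6.02%) and 7 lower (4.22%). Of all tested lncRNAs 9.6% passed, 6.37% higher and 3.23% lower. None had an adjusted p under 0.05 with limma, the smallest being 0.0922, and 23 (13.9%) had an unadjusted p under 0.05, beside 14.2% of all tested lncRNAs. The groups did not overlap for 29 members (17.5%), beside 22.6% of all tested lncRNAs. The median log2 fold change was 0.14 for the members. It was 0.11 for all tested lncRNAs, so the whole table was shifted upward at 12 hpi, and centring the libraries took the members' median to 0.01 and the split to 9 higher and 8 lower. The fold changes below are on the uncentred scale. The count of 17 became 7, all higher, without 0 h replicates 1 and 2, and 4 with a pseudocount of 1. Of the 12 members higher at 6 or 12 hpi than at 0 h, 9 had no 0 h library above 0.5 FPKM. These entered the test through LPS libraries alone, so their number is no support for a change. They were ENSBTAT00000072196, ENSBTAT00000073957, ENSBTAT00000074338, ENSBTAT00000075394, ENSBTAT00000076697, ENSBTAT00000079931, ENSBTAT00000080391, ENSBTAT00000081296 and ENSBTAT00000081465.

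Between 6 and 12 hpi 6 of 166 transcripts (3.61%) passed, 3 higher and 3 lower at 12 hpi (1.81% each). Of all tested lncRNAs 5.39% passed, 3.49% higher and 1.9% lower. Centring left 1 higher and 3 lower. None had an adjusted p under 0.05 with limma, the smallest being 0.466, and 16 (9.64%) had an unadjusted p under 0.05, beside 8.06% of all tested lncRNAs. The groups did not overlap for 19 members (11.4%), beside 15.1% of all tested lncRNAs. The median log2 fold change was 0.16 for the members, with 104 above 0 and 62 below. It was 0.07 for all tested lncRNAs, with 1062 above 0 and 886 below. Centring took the members' median to 0.09. The count of 6 became 13 without 6 hpi replicate 1, 11 without 12 hpi replicate 1, 10 without 12 hpi replicate 3 and 2 with a pseudocount of 1. In all, 22 of 166 members (13.3%) passed in at least 1 comparison, beside 15.5% of all tested lncRNAs. By mean level these were 13 of 79 members under 1 FPKM (16.5%, beside 16.3% of all tested lncRNAs of that level), 8 of 71 from 1 to 5 FPKM (11.3%, beside 14.1%) and 1 of 16 above 5 FPKM (6.25%, beside 14.1%).

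**Figure D2:**
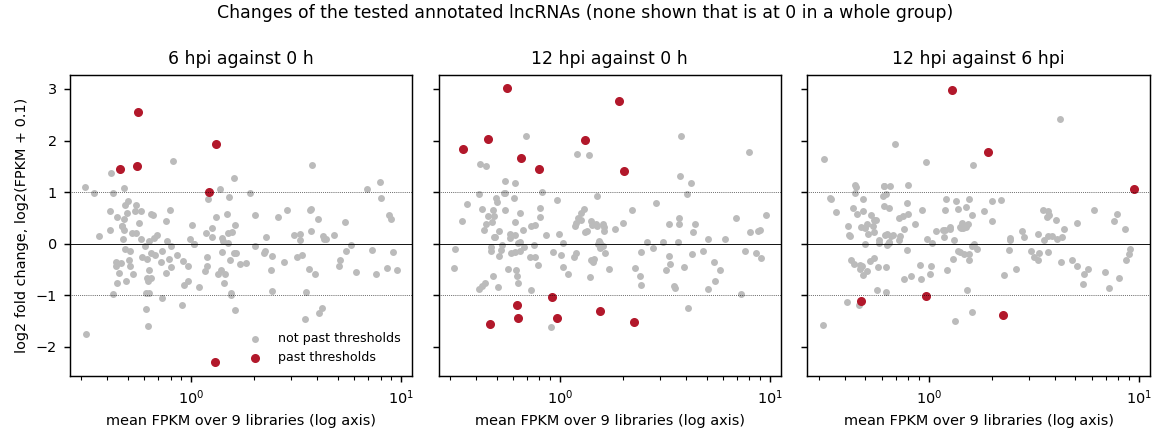
Log2 fold change on the log2(FPKM + 0.1) scale against mean FPKM (log axis) in the 3 comparisons, red where the thresholds were passed, with dotted lines at a change of 1 in either direction. Transcripts listed at 0 in a whole group of a comparison are left out (4, 3 and 3), and the red points lie mostly at means under 2 FPKM.

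The transcript with the smallest adjusted p was ENSBTAT00000080391 (gene ENSBTAG00000054451, chromosome 17, 44006655 to 44008029). It read 0.0187, 0 and 0.0629 FPKM at 0 h, 0.455, 1.08 and 0.499 at 6 hpi, and 0.909, 0.550 and 1.45 at 12 hpi. Every LPS library lay above every 0 h library, and 6 and 12 hpi overlapped. From 0 h the log2 fold change was 2.55 ± 0.515 (SE, n = 3 libraries a group, limma adjusted p = 0.273) at 6 hpi and 3.01 ± 0.515 (adjusted p = 0.0922) at 12 hpi. Both calls remained without any single library and without 0 h replicates 1 and 2, but with a pseudocount of 1 the changes were 0.69 and 0.91. At 12 hpi the adjusted p ranged from 0.0307, without 0 h replicate 3, to 0.682. The transcript is on the study's own list of differential lncRNAs from these libraries, which is not independent evidence.

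ENSBTAT00000075394 (gene ENSBTAG00000048540, chromosome 27, 1412986 to 1429164) was listed at 0 in all 3 libraries at 0 h. It read 0.108, 0.278 and 0.722 FPKM at 6 hpi and 0.646, 0.542 and 0.767 at 12 hpi. No fold is given against a group at 0. It met the filter of 0.5 FPKM in 3 libraries only through LPS libraries. It passed at 6 hpi (limma adjusted p = 0.509) and at 12 hpi (adjusted p = 0.188), and the 6 hpi call was lost without 6 hpi replicate 3, at an unadjusted p of 0.0974. The 12 hpi call remained without any single library and was lost with a pseudocount of 1. The only deposited lncRNA within 100 kb is hosted by ARHGEF10. It too is on the study's list.

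ENSBTAT00000074338 (gene ENSBTAG00000053646, chromosome 21, 69748040 to 69750599) lies across ENSBTAT00000070055, a deposited transcript of another gene. ENSBTAT00000074338 read 0.0558, 0.0629 and 0.210 FPKM at 0 h, 0.313, 0.444 and 0.619 at 6 hpi, and 0.329, 1.31 and 0.767 at 12 hpi. The 0 h libraries were the lowest, with no overlap with either later group. This gave a log2 fold change of 1.45 ± 0.565 (SE) at 6 hpi and 2.02 ± 0.565 at 12 hpi (limma adjusted p = 0.509 and 0.198). The 6 hpi call was lost without 0 h replicate 1 or 2 or without 6 hpi replicate 2 or 3, at unadjusted p from 0.0639 to 0.0954. A pseudocount of 1 ended both calls. The 12 hpi call remained without any single library and was lost without both 0 h replicates 1 and 2 (1.38).

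Another 2 transcripts were higher at both later times, ENSBTAT00000079931 and ENSBTAT00000066904. Both belong to genes with several deposited transcripts and are described with those genes. ENSBTAT00000072196 on chromosome 17 passed only at 6 hpi. It read 0.382, 0 and 0.456 FPKM at 0 h and 0.890, 0.495 and 0.932 at 6 hpi (log2 fold change 1.5 ± 0.631, SE, limma adjusted p = 0.509). At 12 hpi it read 0.534, 0.629 and 0.637, also above all 0 h libraries but under the thresholds. The 6 hpi call was lost without 0 h replicate 2 (0.71), and also without 6 hpi replicate 1 or 3 or any of the 12 hpi libraries, at unadjusted p from 0.0550 to 0.108.

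Among the transcripts that passed at 12 hpi and not at 6 hpi, ENSBTAT00000081465 (gene ENSBTAG00000050269, chromosome 13, 38024463 to 38032742) had the least spread. It read 0.418, 0.483 and 0.306 FPKM at 0 h, 0.606, 0.561 and 0.916 at 6 hpi, and 1.65, 1.05 and 1.14 at 12 hpi, with no overlap between any of the groups. At 6 hpi its log2 fold change was 0.65, under the thresholds. Its log2 fold change at 12 hpi was 1.45 ± 0.319 (SE, limma adjusted p = 0.167), and it passed without any single library and without 0 h replicates 1 and 2 (1.74), but not with a pseudocount of 1 (0.69). ENSBTAT00000073957 (gene ENSBTAG00000050527, chromosome 26, 51237159 to 51239153) read 0.263, 0.352 and 0.323 FPKM at 0 h, 0.622, 0.560 and 1.04 at 6 hpi, and 11.4, 1.83 and 0.869 at 12 hpi. Most of its 12 hpi mean came from replicate 1. The log2 fold change from 0 h was 2.76 ± 0.762 (adjusted p = 0.197), and without 12 hpi replicate 1 it was 1.74 and still passed. Without 0 h replicates 1 and 2 it no longer passed (2.72). From 6 to 12 hpi its change was 1.77 ± 0.762 (adjusted p = 0.609), and the omission of any library except 12 hpi replicate 3 ended that call, at unadjusted p from 0.0507 to 0.117. The last of the 10, ENSBTAT00000081296 on chromosome 3, is named after its values were seen. It read 0.224, 0.107 and 0.486 FPKM at 0 h and 2.55, 0.864 and 0.387 at 12 hpi, with overlap (log2 fold change 1.66 ± 0.670, adjusted p = 0.313), and the call was lost without 0 h replicate 1 or 2 or 12 hpi replicate 1 or 2 (unadjusted p from 0.0616 to 0.154).

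ENSBTAT00000011255 is the only transcript with a gene symbol among those called. The table names its gene ENHO (ENSBTAG00000008539, chromosome 8, 75895253 to 75897375), which in RefSeq is a protein-coding gene for adropin, a secreted peptide linked to energy metabolism. It read 0.702, 0.730 and 2.26 FPKM at 0 h, 1.12, 2.19 and 1.73 at 6 hpi, and 1.84, 3.55 and 3.98 at 12 hpi. The 0 h and 12 hpi groups overlapped through 0 h replicate 3. The log2 fold change at 12 hpi was 1.40 ± 0.484 (SE, limma adjusted p = 0.251). The call was lost without 0 h replicate 1 or 2 or without 12 hpi replicate 2 or 3, at unadjusted p from 0.0542 to 0.0646.

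The other member with a symbol was ENSBTAT00000023345 of CEBPG (chromosome 18, 43804639 to 43811979), which in RefSeq is the protein-coding gene of a basic leucine zipper transcription factor. It read 0.148, 3.76 and 5.21 FPKM at 0 h, 6.06, 5.29 and 0.526 at 6 hpi, and 4.48, 3.69 and 4.33 at 12 hpi. Apart from 1 low library at 0 h and 1 at 6 hpi, all values lay between 3.69 and 6.06. It passed in none of the comparisons.

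**Figure D3:**
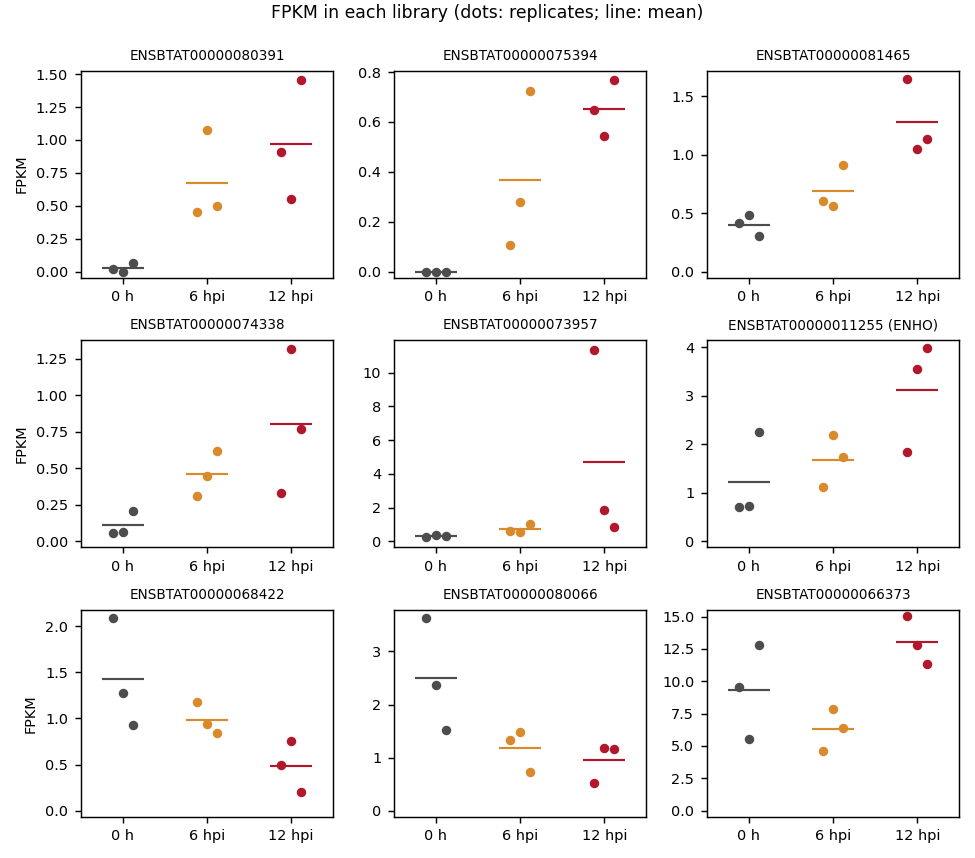
FPKM in each library for 9 transcripts that passed the thresholds in at least 1 comparison, grouped by time point; dots are the 3 libraries and lines their mean, with a separate linear axis for each transcript. ENSBTAT00000080391, ENSBTAT00000075394, ENSBTAT00000074338, ENSBTAT00000081465 and ENSBTAT00000073957 have all 0 h libraries below all later ones, and ENSBTAT00000073957 has a single library at 11.4 FPKM.

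Of the 7 transcripts lower at 12 hpi than at 0 h, the 5 whose groups did not overlap are described here. Passing the thresholds favours groups without overlap, so this count is no further support for a change. ENSBTAT00000068422 (gene ENSBTAG00000050742, chromosome 23, 43204550 to 43207258) read 2.08, 1.28 and 0.926 FPKM at 0 h, 1.18, 0.942 and 0.842 at 6 hpi, and 0.493, 0.757 and 0.203 at 12 hpi. The 12 hpi libraries were the lowest of all. The log2 fold change was −1.44 ± 0.437 (SE, limma adjusted p = 0.213) against 0 h, which held without any single library and was −0.94 without 0 h replicates 1 and 2, −0.97 with a pseudocount of 0.5 and −0.70 with a pseudocount of 1, all under the thresholds. Against 6 hpi it was −1.01 ± 0.437 (adjusted p = 0.609), and 6 of the 9 omissions ended that call, at unadjusted p from 0.0609 to 0.172: 0 h replicate 2, 12 hpi replicate 1 or 3, and each of the 6 hpi replicates.

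ENSBTAT00000080066 on chromosome 9 read 3.63, 2.37 and 1.52 FPKM at 0 h, 1.34, 1.49 and 0.730 at 6 hpi, and 0.516, 1.19 and 1.16 at 12 hpi. Both later groups lay below the 0 h group. Its log2 fold change at 12 hpi was −1.30 ± 0.434 (SE, limma adjusted p = 0.247), and the call was lost without 0 h replicate 1 (unadjusted p = 0.0616) or 12 hpi replicate 1 (0.0567). The remaining 3 were ENSBTAT00000078590 (log2 fold change −1.56), ENSBTAT00000071718 (−1.03) and ENSBTAT00000082387 (−1.18). ENSBTAT00000078590 read 0.907, 0.691 and 0.429 FPKM at 0 h and 0.177, 0.0502 and 0.298 at 12 hpi. ENSBTAT00000071718 read 1.05, 1.49 and 1.08 FPKM at 0 h and 0.598, 0.685 and 0.364 at 12 hpi. ENSBTAT00000082387 had the widest 0 h group of the 3, at 1.67, 0.948 and 0.438 FPKM, and read 0.282, 0.388 and 0.361 at 12 hpi. Each of these calls was lost without particular libraries. For ENSBTAT00000078590 these were 0 h replicates 1 and 2 and 12 hpi replicate 2 (unadjusted p from 0.0615 to 0.0874). For ENSBTAT00000071718 they were 0 h replicate 2 (0.0817) and 12 hpi replicate 3 (0.0890). For ENSBTAT00000082387 they were 0 h replicates 1 and 2 and 12 hpi replicates 1 and 3 (0.0535 to 0.132).

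Between 6 and 12 hpi the most abundant member also passed. ENSBTAT00000066373 read 9.58, 5.55 and 12.8 FPKM at 0 h, 4.61, 7.87 and 6.39 at 6 hpi, and 15.0, 12.8 and 11.3 at 12 hpi. All 12 hpi libraries exceeded all 6 hpi libraries, while the range of 0 h overlapped both. From 6 to 12 hpi its log2 fold change was 1.07 ± 0.321 (SE, limma adjusted p = 0.467). It fell below 1 without 6 hpi replicate 1 (0.86) or 12 hpi replicate 1 (0.96), and with centred values.

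ENSBTAT00000083595 (chromosome 5, 116960821 to 116966569) had a lower mean at 6 hpi than at 0 h or 12 hpi. It read 0.810, 0.224 and 3.96 FPKM at 0 h, 0.0636, 0.0219 and 0.415 at 6 hpi, and 3.01, 0.468 and 2.71 at 12 hpi. The 6 hpi libraries were below all 12 hpi libraries and overlapped 0 h. The log2 fold change was −2.29 ± 1.01 (SE, limma adjusted p = 0.509) from 0 h to 6 hpi and 2.97 ± 1.01 (adjusted p = 0.545) from 6 to 12 hpi. Without 0 h replicate 3 the earlier change was −1.32 (unadjusted p = 0.195), and it was also lost without 0 h replicate 1, 6 hpi replicate 1 or 2, or 12 hpi replicate 1 or 3. The later call was lost without 6 hpi replicate 2 or 12 hpi replicate 1 or 3, at unadjusted p from 0.0554 to 0.0602. ENSBTAT00000066805 on chromosome 8 was lower at 12 hpi, with 0.592, 0.652 and 0.820 FPKM at 6 hpi and 0.232, 0.357 and 0.216 at 12 hpi (log2 fold change −1.11 ± 0.368, adjusted p = 0.545). Without 6 hpi replicate 3 the unadjusted p was 0.0559.

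A large share of the scarce annotated lncRNAs were alternative transcripts of the same gene. Of the 152 genes, 37 had several deposited transcripts, 30 with 2, 6 with 3 and 1 with 6, which together held 77 members. In 8 of these genes the transcripts covered exactly the same span. A short read that lies in a shared exon can be assigned to any of them, so the authors' quantification divides it and the level of each transcript is uncertain. FPKM values of the transcripts of a gene were therefore also summed. The median CV over the 9 libraries was 53.3% for the 84 transcripts of these genes and 34.5% for the 37 sums. The sum had a lower CV than every transcript of the gene in 27 of 37 genes and than the median transcript in 36. A sum of parts that vary independently also has a lower CV than its parts, so these counts do not show that reads were divided unevenly.

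**Figure D4:**
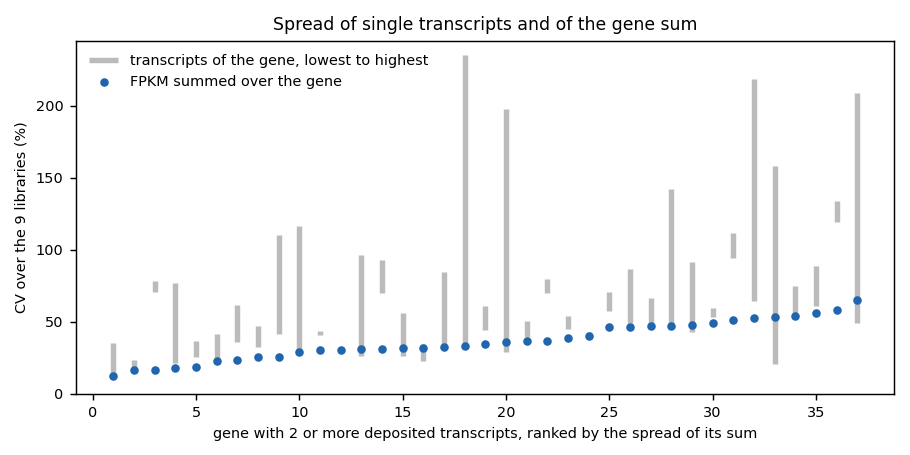
CV over the 9 libraries, in percent, for 37 genes with several deposited transcripts, ranked by the CV of the summed FPKM; grey bars run from the lowest to the highest CV among the transcripts and blue dots are the CV of the sum. Dots lie below the whole bar in 27 genes.

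The clearest exchange was in ENSBTAG00000052735 (chromosome 8, 22841638 to 22872154), with 2 transcripts of the same span. ENSBTAT00000070622 read 6.79, 2.43 and 2.99 FPKM at 0 h, 7.98, 3.07 and 0 at 6 hpi, and 1.61, 5.85 and 0.886 at 12 hpi. ENSBTAT00000069297 read 2.2, 7.07 and 3.20 at 0 h, 0, 4.82 and 6.62 at 6 hpi, and 5.31, 0 and 7.39 at 12 hpi. Where either was listed at 0 the other was at 5.85 FPKM or more. The sum stayed between 5.85 and 9.50 FPKM, a CV of 16.6% against 70.6% and 78.4% for the transcripts. The switch occurred between replicates of the same time point. In ENSBTAG00000050082 on chromosome 16, ENSBTAT00000084238 and ENSBTAT00000084812 likewise alternated: in 8 of the 9 libraries 1 of the pair was listed at 0.

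The gene of the primer pair, ENSBTAG00000048887 (chromosome 10, 97153449 to 97254018), had 6 transcripts, 5 of them members. The exception, ENSBTAT00000072565, was the main product at 13.6 to 34.9 FPKM. ENSBTAT00000079931 (97156891 to 97169381) was listed at 0 in all 0 h libraries, at 4.21, 1.41 and 1.78 FPKM at 6 hpi, and at 1.75, 0 and 2.83 at 12 hpi. It passed at 6 hpi (limma adjusted p = 0.323) without any single library, and at 12 hpi (adjusted p = 0.267), where the call was lost without 12 hpi replicate 1 (unadjusted p = 0.0844) or 3 (0.0931). With 12 hpi replicate 2 left out, where it was listed at 0, the adjusted p was 0.0145 at 6 hpi and 0.0324 at 12 hpi, and with only the 6 libraries compared it was 0.0476 at 6 hpi. Over all alternatives it reached 1 at 6 hpi and 0.983 at 12 hpi. Summed over the gene, FPKM was 50.9, 37.3 and 29.9 at 0 h, 37.2, 26.3 and 24.1 at 6 hpi, and 21.4, 45.1 and 32.3 at 12 hpi. The groups overlapped, and the sum had a log2 fold change of −0.42 ± 0.296 (SE, adjusted p = 0.616) at 6 hpi and −0.29 ± 0.296 (adjusted p = 0.649) at 12 hpi. The transcript was higher at both times, whereas the sum of its gene passed at neither and had a negative sign at both. ENSBTAT00000079931 held 0 to 11.3% of the sum, so the sum mostly follows the other transcripts.

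**Figure D5:**
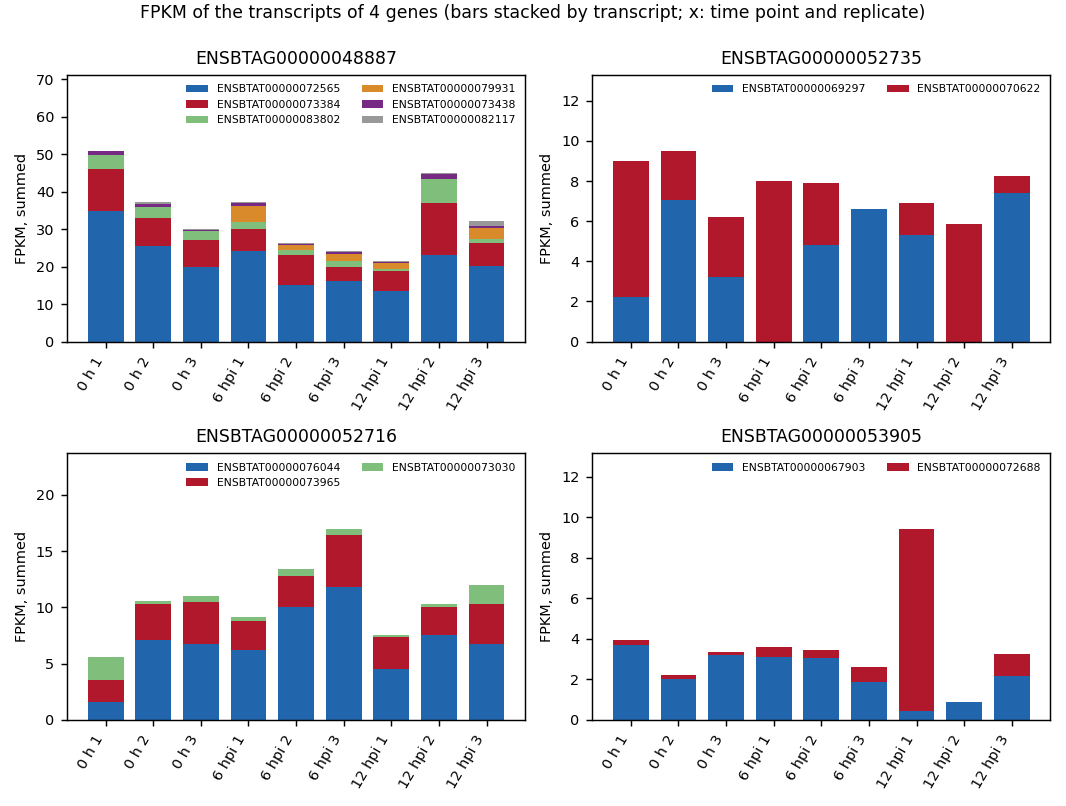
FPKM of the deposited transcripts of 4 genes, stacked by transcript in each of the 9 libraries (linear axes from 0). ENSBTAT00000079931 is a thin layer absent at 0 h in ENSBTAG00000048887, the 2 transcripts of ENSBTAG00000052735 replace each other under a sum of 5.85 to 9.50 FPKM, and ENSBTAT00000072688 fills 12 hpi replicate 1 in ENSBTAG00000053905.

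Of the 22 transcripts called in any comparison, 6 belonged to genes with several transcripts, and these gave 9 calls. On the summed FPKM 1 of the 9 remained, and 2 genes none of whose tested transcripts passed did so as sums, both higher at 12 than at 6 hpi. ENSBTAG00000052619 on chromosome 9 had a summed log2 fold change of 1.47 ± 0.354 (SE, limma adjusted p = 0.363) and ENSBTAG00000051765 on chromosome 3 of 1.54 ± 0.645 (adjusted p = 0.541). The first summed to 0.36, 0.39 and 0.90 FPKM at 6 hpi and 2.07, 1.54 and 1.24 at 12 hpi. Of the 2.07, ENSBTAT00000071741 held 1.89. The second summed to 4.58, 5.05 and 0.60 at 6 hpi and 5.95, 7.59 and 8.83 at 12 hpi. In its lowest library ENSBTAT00000085478 was listed at 0. Neither sum was refitted without single libraries. The call that remained was ENSBTAT00000076697 of ENSBTAG00000050853 on chromosome 21, at 0.149, 0.00827 and 0.166 FPKM at 0 h, 0.576, 0.263 and 0.127 at 6 hpi, and 0.444, 0.675 and 0.690 at 12 hpi. Its log2 fold change at 12 hpi was 1.85 ± 0.630 (SE, limma adjusted p = 0.251) and that of the gene's sum was 1.15 ± 0.354 (adjusted p = 0.158). ENSBTAT00000076697 held 0.759 to 33.2% of the sum, which therefore mostly follows ENSBTAT00000085384. The sum was 1.467 FPKM in 0 h replicate 3 and 1.471 in 12 hpi replicate 1, and it too was not refitted without single libraries. The call of ENSBTAT00000076697 itself was lost without 12 hpi replicate 2 (unadjusted p = 0.0510) or 3 (0.0504).

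ENSBTAT00000066904 of ENSBTAG00000053414 on chromosome 18 read 0.887, 0.684 and 0 FPKM at 0 h, 2.73, 0.925 and 1.38 at 6 hpi, and 1.01, 1.45 and 2.80 at 12 hpi, above all 0 h libraries. Its partner ENSBTAT00000078646, of the same span, was at 3.98 FPKM in 0 h replicate 3, the library where ENSBTAT00000066904 was listed at 0. The log2 fold changes of the transcript were 1.93 and 2.00 at 6 and 12 hpi, and those of the sum 0.60 and 0.68, neither past the thresholds. Without 0 h replicate 3 those of the transcript were 0.89 and 0.96. Other omissions also ended its calls, 6 hpi replicate 1 or any 12 hpi replicate at 6 hpi, 12 hpi replicate 2 or 3 at 12 hpi, and 6 hpi replicate 3 at both (unadjusted p from 0.0512 to 0.142).

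In ENSBTAG00000053905 on chromosome 4, ENSBTAT00000067903 was lower at 12 hpi, at 3.69, 2.01 and 3.18 FPKM at 0 h, 3.10, 3.07 and 1.86 at 6 hpi, and 0.417, 0.861 and 2.16 at 12 hpi. Its log2 fold change from 0 h was −1.51 ± 0.508 (SE, limma adjusted p = 0.247). ENSBTAT00000072688 of the same gene reached 9.0 FPKM in 12 hpi replicate 1, where ENSBTAT00000067903 was at its lowest. Summed, the change was −0.03. Leaving out 12 hpi replicate 1 gave −1.01 for ENSBTAT00000067903 (unadjusted p = 0.0531), and without 0 h replicate 1 it was −1.34 (0.0515). The change from 6 hpi was −1.38, lost without 12 hpi replicate 1 or 2 or 6 hpi replicate 1 or 2 (unadjusted p from 0.0578 to 0.0848).

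The last 2 of the 6 were ENSBTAT00000080643 of ENSBTAG00000054053 on chromosome 29 and ENSBTAT00000075455 of ENSBTAG00000051725 on chromosome 18. ENSBTAT00000080643 was lower at 12 hpi with overlapping groups (log2 fold change −1.44), and its gene's sum changed by −0.69. Its call was lost without 0 h replicate 1 or 2 or 12 hpi replicate 1 or 2 (unadjusted p from 0.0736 to 0.120). In this gene ENSBTAT00000086900 was at 2.63 FPKM in 0 h replicate 3 and 3.56 in 6 hpi replicate 2 and at most 0.0770 elsewhere. ENSBTAT00000075455 was higher at 6 hpi, at 2.05, 2.07 and 0.994 FPKM against 0.369, 0.982 and 1.14 at 0 h (log2 fold change 1.01). Its gene's sum changed by 0.51, and the call was lost without 0 h replicate 1, 6 hpi replicate 1 or 2, or any 12 hpi replicate (unadjusted p from 0.0547 to 0.166). Called in at least 1 comparison were 6 of 68 tested members from genes with several (8.82%) and 16 of 98 from genes with a single deposited transcript (16.3%), beside 15.5% of all tested lncRNAs. The difference between these shares was not tested.

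Some transcripts were high in a single library. In 7 of the 192 (3.65%, beside 4.03% of all deposited lncRNAs) the highest library exceeded the next by more than 3-fold, and in 4 of the 7 that library was 12 hpi replicate 1. Over all deposited lncRNAs 12 hpi replicate 1 held 15 of 91 such peaks, as many as 6 hpi replicate 1. ENSBTAT00000067218 (gene ENSBTAG00000052187, chromosome 5, 22470723 to 22473989) was at 14.7 FPKM in 12 hpi replicate 1, at 0.101 in 6 hpi replicate 3 and listed at 0 in the other 7 libraries. It was not tested, because 1 library above 0.5 FPKM did not meet the filter. ENSBTAT00000073957 and ENSBTAT00000073518 lie near each other on chromosome 26, the latter at 51216470 to 51217615, and both peaked in 12 hpi replicate 1, at 11.4 and 2.08 FPKM. ENSBTAT00000073518 was at 0.389 and 0.334 FPKM in the other 12 hpi libraries and at most 0.142 in the earlier ones. The remaining peaks were ENSBTAT00000072688 in the same library, ENSBTAT00000080472 in 0 h replicate 2 (2.34 FPKM), ENSBTAT00000066658 in 6 hpi replicate 3 (1.5) and ENSBTAT00000069552 in 6 hpi replicate 1 (1.32).

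The study's lists of differential lncRNAs, drawn from these same libraries, held 10 of the members. Of these ENSBTAT00000080391, ENSBTAT00000075394, ENSBTAT00000073957 and ENSBTAT00000079931 are described above as passing the thresholds, and ENSBTAT00000067218 and ENSBTAT00000066658 as peaks of a single library. ENSBTAT00000076514 on chromosome 11 was listed at 0 in all 6 libraries of 0 h and 6 hpi and read 1.22, 0.218 and 0.856 FPKM at 12 hpi. It was not tested, with 2 libraries above 0.5 FPKM. ENSBTAT00000079330 on chromosome 14 was above 0 in 3 libraries, at 2.29 FPKM in 0 h replicate 2 and at 2.07 and 1.15 in 12 hpi replicates 1 and 3. ENSBTAT00000076137 on chromosome 20 read 0, 0.620 and 0.520 FPKM at 0 h, 0 in all 6 hpi libraries, and 0.744, 1.21 and 0 at 12 hpi. ENSBTAT00000070727 on chromosome 22 read 0, 1.74 and 0.332 FPKM at 0 h, 0, 0.784 and 1.46 at 6 hpi, and 0 in all 12 hpi libraries. These last 3 passed in no comparison here, with limma unadjusted p of at least 0.102, and each had a library at 0 in the group where it was highest.

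By position, 78 of the 192 transcripts overlapped another deposited lncRNA and 82 had none within 100 kb. Only 2 overlapped a lncRNA assembled by the study, ENSBTAT00000072275 with a sense transcript of PLCB4, a phospholipase C gene, and ENSBTAT00000081485 with a sense transcript of DAP, death-associated protein. The study checked assembled transcripts against annotated exons when selecting lncRNAs, so this count can depend on that selection. Within 100 kb of 11 members lay lncRNAs hosted by 10 named genes, among them ABO, the glycosyltransferase of the blood group of that name, beside ENSBTAT00000075230, and CALD1, caldesmon of the actin cytoskeleton, beside ENSBTAT00000066982 and ENSBTAT00000067653. The other 6 hosts were AIG1, CARD19, LRRC27, TANGO2, TMEM267 and ARHGEF10. None of the genes listed for Toll-like receptor 4 and NF-κB signalling, cytokines, interferon response, MAPK or Notch was named within 100 kb of a member. The tables name only the host genes of lncRNAs, so a neighbour without a deposited lncRNA would not appear.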

How the data were processed

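Total RNA of 9 MAC-T libraries (3 each at 0 h, 6 hpi and 12 hpi) was depleted of ribosomal RNA and sequenced by the study. Per the labels and the study's methods, the authors aligned reads with HISAT2 to ARS-UCD1.2, merged assembled transcripts, kept those with several exons, a length over a minimum, a level above 0.5 FPKM and no coding potential, and quantified them with StringTie. They used Cuffdiff 2.1.1 for differential expression; the labels also name DESeq 1.10.1. The deposited values used here are FPKM per transcript, normalized by the authors to length and mapped fragments. They carry no read counts, and none were recovered, so no counting interval is given. Exact 0 values may be failed estimates. The tables of 8 libraries repeat the combined table; 0 columns belonged to no sample. Circular RNA tables were not used, since they give no positions.

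Members were selected by identifier, position and mean FPKM. LncRNAs above 0.5 FPKM in at least 3 of 9 libraries (1948, of which 166 members) were fitted with limma 3.58.1 in R 4.3.3 on log2(FPKM + 0.1), with an empirical Bayes trend, all 9 libraries in the fit and no covariate, two-sided, with Benjamini-Hochberg adjustment over the 1948. With 3 libraries against 3, an exact permutation test cannot go below p = 0.1, so none was used. The fit was tested on simulated data. Alternatives were other pseudocounts, no filter, centring, quantile normalization, only the compared libraries, a replicate block, no trend, each library left out, 0 h replicates 1 and 2 left out, and FPKM summed per gene.

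The members and lists were chosen with earlier results of these data known. Named transcripts are the 10 highest means, those past the thresholds without overlap (up to 6 in each direction by p), members on the study's lists, members with a symbol, those next to the limit, those sharing a gene with another transcript, and the 5 highest and lowest CVs. Transcripts named for a peak in a single library or for a neighbour were chosen after their values were seen. RefSeq annotation (ARS-UCD2.0) matched 0 members by Ensembl identifier and 2 by symbol. No genome of the files' build was used here, so the only sequences printed are primers.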

Additional observations from a re-analysis of the deposited data

How the results depend on the processing

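The 8 transcripts past the thresholds at 6 hpi against 0 h became 3 with a pseudocount of 0.5, 1 with a pseudocount of 1, 13 with no filter, 5 with only the 6 libraries compared, 5 with no trend and 5 without 0 h replicates 1 and 2 together. The 17 at 12 hpi against 0 h became 4 with a pseudocount of 1 and 7 without 0 h replicates 1 and 2 together. The 6 between 6 and 12 hpi became 2 with a pseudocount of 1 and 11 with no filter. Leaving out each library in turn gave 4 to 14, 13 to 24 and 4 to 13 transcripts. At 6 hpi against 0 h the count moved by over 1.5 times without 0 h replicate 3 (14), 12 hpi replicate 1 (5) and 12 hpi replicate 3 (4), and between 6 and 12 hpi without 6 hpi replicate 1 (13), 12 hpi replicate 1 (11) and 12 hpi replicate 3 (10). The causes were not tested. Matching counts over all tested lncRNAs are not given for these settings, so the shifts cannot be read as particular to the members. Of the 31 single calls, 8 (7 transcripts) remained without any single library, 4 with a pseudocount of 1 and 12 without 0 h replicates 1 and 2 together, where the lone 0 h library is assumed to vary like the other groups. Fits that left out a library kept the filter set on all 9 libraries. Of the 7 transcripts that remained without any single library, all but ENSBTAT00000068422 met that filter through LPS libraries alone. Their number is therefore no support for a change. On the FPKM of the transcript itself, no call changed direction under any alternative. The sum over the gene of ENSBTAT00000079931 changed by −0.42 at 6 hpi and −0.29 at 12 hpi against 0 h. That transcript held 0 to 11.3% of the sum, so the sum is not another estimate of its change.

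Replicate numbers did not pair the libraries. Deviations of libraries with the same number correlated at −0.0754 to 0.0728. With the replicate number as a block, 7, 15 and 6 transcripts passed in the 3 comparisons. FPKM without read counts limits what can be said of transcripts under 1 FPKM, where a listed 0 may be too few reads.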
